A study of Mus musculus with 6 samples.

Results

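Blood stem and progenitor cell genes were described in fetal liver lacking Klf1, the erythroid Krüppel-like transcription factor. The set is a list of 33 gene symbols, from the surface receptor Slamf1 to the transcription factor Mycn, and 32 of them had a probe set of their own among 19937 genes measured. The exception was Ly6a, the stem cell antigen Sca-1, which no probe set used here named. The wildtype group was 3 embryos and the knockout group 3 Klf1-/- embryos, all of strain FVB/NJ at embryonic day 13.5; the labels give matings of Klf1 +/- mice and do not say whether the 6 embryos shared litters. Each whole liver was dissociated and its RNA put on 1 array, so n = 3 per group throughout, and with no statement on litters the p-values measure only the spread between these embryos. The knockout is of the whole embryo, so every cell type of the liver carried it, and the labels do not give the allele's structure.

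Blood stem cells settle in the fetal liver in mid-gestation and expand there before they move to the bone marrow. They are rare, and they give rise to progenitors that narrow step by step to the red cell, megakaryocyte, myeloid and lymphoid lines. Stem cells are sorted by surface proteins, among them the SLAM receptors: presence of Slamf1 (CD150) with absence of Cd48 is a standard stem cell gate. Their state is held by transcription factors of the HOX, MEIS, ETS and PR-domain families and by chromatin and RNA regulators such as Bmi1 and Msi2. Many of these genes are also used elsewhere in the liver, for instance Slamf1 and Meis1 in megakaryocytes, Kit in early red cell precursors and mast cells, and Erg, Cd34 and Fgd5 in endothelium.

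The promoters of 4 genes are shown because they carry the main contrasts of the set: Slamf1 and Etv6, the 2 largest rises; Meis1, the single called gene of the HOX and cofactor group; and Cd48, the measured neighbour next to Slamf1, which was not called. Each is the RefSeq window from 250 bases before to 50 bases after the annotated start on build GRCm38.p6, 5′ to 3′ on the gene's strand. Capitals mark matches, on either strand, to the CACCC-type Krüppel-like factor motif CCNCNCCC or to the GATA motif, AGATAA or TGATAA; matches of the first can overlap each other. The windows are chr1:171766882-171767181 on the plus strand (Slamf1), chr6:134035450-134035749 on the plus strand (Etv6), chr11:19018920-19019219 on the minus strand (Meis1) and chr1:171681742-171682041 on the plus strand (Cd48).
Slamf1: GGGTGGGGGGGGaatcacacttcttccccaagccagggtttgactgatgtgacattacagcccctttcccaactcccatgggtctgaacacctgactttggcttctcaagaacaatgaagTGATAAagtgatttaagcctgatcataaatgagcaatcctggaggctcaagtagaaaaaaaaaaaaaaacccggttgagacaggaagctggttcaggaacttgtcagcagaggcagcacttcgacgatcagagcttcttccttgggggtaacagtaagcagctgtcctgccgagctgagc
Etv6: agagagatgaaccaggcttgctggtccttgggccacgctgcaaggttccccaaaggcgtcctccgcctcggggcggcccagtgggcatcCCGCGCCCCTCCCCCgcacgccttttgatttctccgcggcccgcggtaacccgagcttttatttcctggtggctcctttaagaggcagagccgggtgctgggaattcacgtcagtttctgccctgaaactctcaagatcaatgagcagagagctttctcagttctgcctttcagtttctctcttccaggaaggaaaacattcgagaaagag
Meis1: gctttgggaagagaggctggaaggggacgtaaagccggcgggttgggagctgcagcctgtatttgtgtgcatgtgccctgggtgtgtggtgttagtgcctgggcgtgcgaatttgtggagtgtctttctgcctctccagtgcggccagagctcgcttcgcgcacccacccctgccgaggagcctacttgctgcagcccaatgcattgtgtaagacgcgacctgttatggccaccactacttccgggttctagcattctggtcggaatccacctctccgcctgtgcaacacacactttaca
Cd48: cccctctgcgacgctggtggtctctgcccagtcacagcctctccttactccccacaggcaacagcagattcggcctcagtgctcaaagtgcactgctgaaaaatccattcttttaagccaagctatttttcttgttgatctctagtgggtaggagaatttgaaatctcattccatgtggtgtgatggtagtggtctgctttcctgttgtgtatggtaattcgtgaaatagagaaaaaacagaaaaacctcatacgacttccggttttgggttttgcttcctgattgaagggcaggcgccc

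The Slamf1 window held 2 overlapping CACCC-type matches at its far upstream end and 1 GATA match, the Etv6 window 3 CACCC-type matches, and the Meis1 and Cd48 windows 0 of either. Of the 33 genes 29 had a promoter in the table. A CACCC-type match stood in 24 of these 29, against 51.9% of all 27025 genes in the table, and in 7 of the 9 genes called higher against 16 of the 19 not called. The median GC content was 57.3% in the 43 windows of the set and 52.7% over all 32851 windows. A GATA match stood in 4 of the 29 genes, against 21.0% of all genes, and an ETS match (AGGAAG or CGGAAG) in 18 of the 29, against 49.8%. A RUNX match (TGTGGT) stood in 3 of the 29, against 18.9%, and a MEIS match (TGACAG) in 5, against 21.6%. A match describes letters in the window and not a bound site, and 0 matches say only that these letters are not in it. The pattern CCNCNCCC is not the same as the letters CACCC. The Meis1 window holds CACCCACCCC, which the pattern does not match, and the marked stretch of Etv6 holds no CACCC.

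Values below are log2 RMA intensities, changes are knockout minus wildtype, and ± gives limma's standard error. The word called means a Benjamini-Hochberg adjusted p under 0.05, adjusted over all 19937 genes. Median intensities per array lay between 104.5 and 109.8. Klf1 fell by 1.46 ± 0.10, to 0.364 of wildtype (limma adjusted p = 3.7e-06), with no overlap of the groups. It still read 9.05 to 9.38 on knockout arrays, and all 6 arrays were above their median probe set. The labels do not say where its probe set lies relative to the altered part of the gene. The liver's own cells were present in both groups: Alb, the albumin gene, read 13.84 to 14.03 on wildtype arrays and 13.78 to 13.93 on knockout arrays. In whole livers more or fewer cells of a kind and more or less RNA per cell cannot be told apart.

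Of the 32 measured genes 11 rose, 1 fell and 20 were not called. The background is wide in this comparison: 19.1% of all genes were called, with 10.8% rising and 8.26% falling. Of the set 34.4% were called higher. Dim genes lower the shares over all genes. With dim genes filtered at the 25th percentile, more genes were called although fewer were tested, and nearly all of the set was kept. The share called higher among genes as bright as the set was not taken. How far the set exceeds genes of like brightness was therefore not tested. The shares over all genes are also the background for the smaller groups and lists below. The groups did not overlap in 14 of the 32 genes, or 43.8%, close to the 37.5% over all genes. The median change of the set was 0.13, against -0.02 over all genes, and 0.12 without Slamf1. Most changes were small: Slamf1 and Etv6 were the 2 genes changed at least 1.5-fold, 6.25% of the set against 5.26% of all genes.

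**Figure D1:**
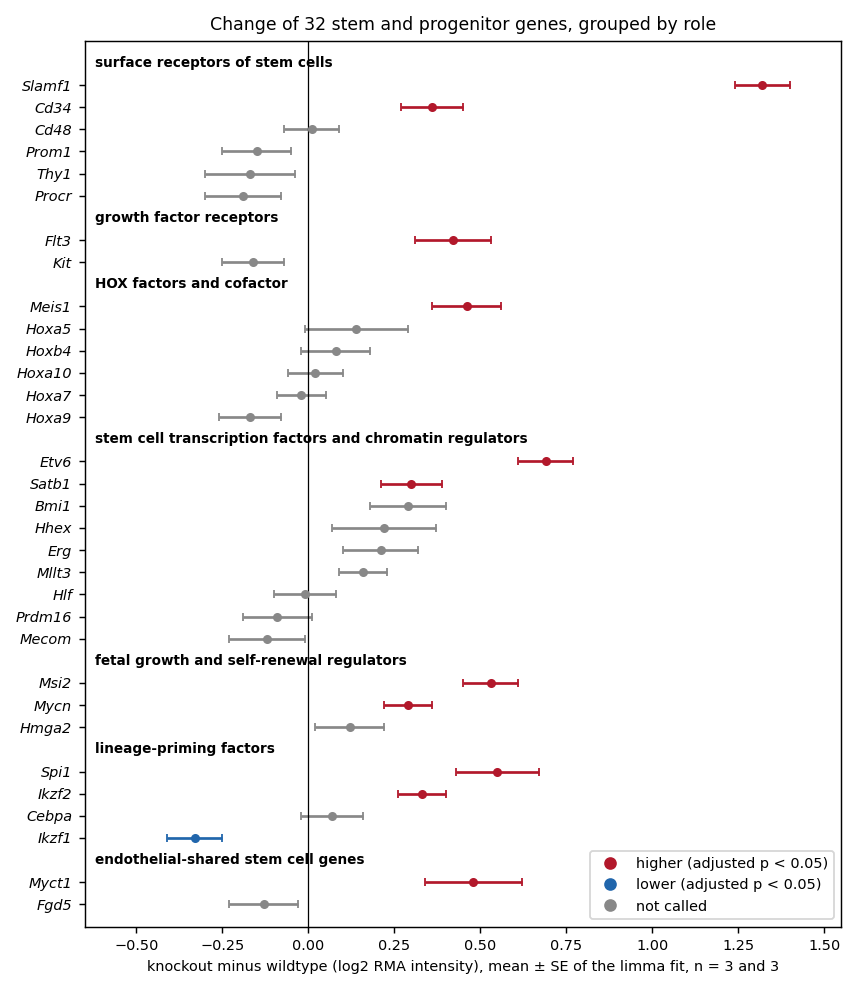
Change of each measured stem and progenitor gene, knockout minus wildtype on the log2 scale (horizontal axis), grouped by role; points are fitted changes, bars the SE of the limma fit, n = 3 per group. Slamf1 stands apart at 1.32, the other genes called higher lie between 0.29 and 0.69, and Ikzf1 at -0.33 is the gene called lower.

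Among the surface receptors used to sort stem cells, Slamf1 and Cd34 rose and the other 4 measured were not called. Slamf1, a SLAM receptor that binds itself on neighbouring cells, read 8.94, 8.86 and 8.85 in wildtype replicates 1, 2 and 3 and 10.10, 10.23 and 10.28 in the knockout replicates. All 3 knockout arrays were more than 1 log2 unit above every wildtype array. The change was 1.32 ± 0.08, or 2.50-fold (limma adjusted p = 1.3e-06), and it lay between 1.28 and 1.37 with any array left out. Cd34, a sialomucin of progenitors and endothelium, read 9.35, 9.43 and 9.59 in wildtype and 9.77, 9.89 and 9.79 in the knockout. The groups did not overlap, but wildtype replicate 3 came within 0.2 of the lowest knockout array. Its change of 0.36 ± 0.09 (limma adjusted p = 0.016) lost its call when replicate 2 of either group was left out, with changes of 0.30 to 0.42 and adjusted p up to 0.070 over the arrays left out.

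The remaining receptors had overlapping groups. Cd48, the SLAM-family ligand whose absence marks stem cells in the standard gate, read 6.08, 6.0 and 6.05 in wildtype and 5.99, 6.05 and 6.12 in the knockout, a change of 0.01 ± 0.08 (limma adjusted p = 0.94) with a 95% interval from -0.16 to 0.18. Procr, the endothelial protein C receptor, had a change of -0.19 ± 0.11 between a wildtype mean of 5.83 and a knockout mean of 5.64. Thy1, a small anchored glycoprotein of T cells and fibroblasts that also marks stem cells, had -0.17 ± 0.13, and Prom1, the membrane protein CD133, had -0.15 ± 0.10. Their adjusted p ran from 0.24 to 0.38. Thy1 averaged 6.31 ± 0.24 in wildtype and 6.13 ± 0.17 in the knockout (SD, n = 3), and Prom1 7.66 ± 0.14 and 7.51 ± 0.10. Cd48, Procr and Thy1 lay below the median probe set on all 6 arrays.

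Slamf1 lies in a cluster of SLAM receptor genes, and no other measured gene of the cluster was called. Most of these genes were faint: among the other SLAM receptors Ly9 alone read above the median probe set. Slamf6 and Slamf7, and the neighbours Itln1 and Nhlh1, read below the lower quartile on all 6 arrays. Whether a change in such faint genes could have been seen was not tested. Of 7 other SLAM family receptors 0 were called by limma, and 0 had an unadjusted p under 0.05. Their changes ran from -0.17 for Slamf8 to 0.08 for Cd84, and the fit without moderation called 0 as well. In the order of genes on the chromosome, the 5 measured genes to each side of Slamf1 had changes between -0.19 and 0.08, among them Cd48 next to it on one side and Cd84 on the other. With centring on the level of housekeeping genes, described below, 2 of the 7 receptors were called lower, where 45.1% of all genes were called lower.

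**Figure D2:**
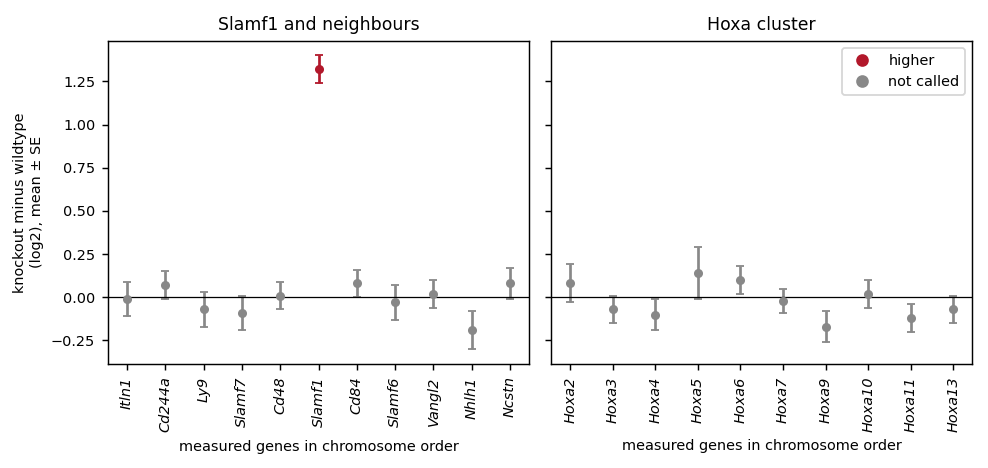
Log2 change with its limma SE, as knockout minus wildtype, of Slamf1 and the 5 measured genes to each side (left) and of the 10 measured Hoxa genes (right), in chromosome order. Slamf1 at 1.32 is the only gene called in either panel, and the others lie between -0.19 and 0.14. Itln1, Slamf7, Slamf6, Nhlh1 and Hoxa10 read below the lower quartile on every array.

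The growth factor receptors parted. Flt3, the receptor tyrosine kinase of multipotent and lymphoid-primed progenitors, read 6.46, 6.46 and 6.43 in wildtype and 6.68, 7.11 and 6.81 in the knockout. Wildtype arrays were tightly grouped and knockout replicate 2 was the highest. The change was 0.42 ± 0.11 (limma adjusted p = 0.019). The call was lost when replicate 2 of either group or replicate 3 of the wildtype was left out, with changes of 0.30 to 0.51 and adjusted p up to 0.065, and 4 of the 6 arrays read below their median probe set. Kit, the stem cell factor receptor, read 9.09, 9.17 and 9.30 in wildtype and 8.91, 9.14 and 9.05 in the knockout, a change of -0.16 ± 0.09 that was not called (limma adjusted p = 0.26).

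Among ligands of the niche, Flt3l, which encodes the ligand of Flt3, read 7.76, 7.71 and 7.97 in wildtype and 8.59, 8.75 and 8.70 in the knockout. It rose by 0.87 ± 0.09 (limma adjusted p = 7.8e-05), with no overlap of the groups. Kitl, which encodes stem cell factor, had a change of -0.07 ± 0.08 and was not called. Of the 10 niche ligands measured, 2 rose and 1 fell: Angpt1, the Tie2 ligand, rose by 0.38 ± 0.11 (adjusted p = 0.038), and Vcam1, an adhesion protein of stroma and macrophages, fell by 0.43 ± 0.10 (adjusted p = 0.010). Picked after its value was seen, the chemokine gene Cxcl12 had -0.07 ± 0.12 and was not called. Angpt1 read below the median probe set on 4 of 6 arrays, and the count of rises was 1 without any 1 of the arrays other than knockout replicate 1, and 1 with housekeeping level centring.

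The HOX genes of the set were not called, while their cofactor gene Meis1 rose. Meis1, a homeodomain protein that binds DNA with HOX and PBX proteins, read 8.74, 8.63 and 8.52 in wildtype and 8.94, 9.06 and 9.24 in the knockout. The highest wildtype array lay 0.2 below the lowest knockout array. The change of 0.46 ± 0.10, or 1.37-fold (limma adjusted p = 0.0084), stayed called with any array left out, between 0.38 and 0.53. Hoxa9, the HOX factor most studied in blood progenitors and leukaemia, read 6.55, 6.53 and 6.45 in wildtype and 6.36, 6.22 and 6.45 in the knockout, a change of -0.17 ± 0.09 with a 95% interval from -0.36 to 0.02 (limma adjusted p = 0.20).

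Other HOX members had changes near 0. Hoxa5 had 0.14 ± 0.15, Hoxb4, a factor used to expand stem cells in culture, had 0.08 ± 0.10, Hoxa10 had 0.02 ± 0.08 and Hoxa7 had -0.02 ± 0.07, with limma adjusted p from 0.53 to 0.90. Their wildtype means (SD, n = 3) were 6.34 ± 0.33 for Hoxa5, 5.72 ± 0.06 for Hoxb4, 5.03 ± 0.06 for Hoxa10 and 6.51 ± 0.01 for Hoxa7, so all were faint on these arrays. With centring on the level of housekeeping genes Hoxa5, Hoxb4 and Hoxa10 turned negative, Hoxa10 also with 75th percentile centring, and Hoxa7 turned positive with quantile normalization. All 5 HOX members read below the median probe set on every array, and Hoxa10 below the lower quartile. Over all 18 listed HOX genes measured, of the Hoxa and Hoxb clusters, limma called 0 and the fit without moderation called 0. An unadjusted limma p under 0.05 stood in 1, Hoxb7, at -0.27 ± 0.12. Of the 18 changes 13 were negative, against 10916 of 19937 over all genes. Without wildtype replicate 3, 1 of the 13 HOX genes outside the set, Hoxb9, was called lower, a name picked after its values were seen. With housekeeping level centring 12 of the 18 were called lower, where 45.1% of all genes were called lower.

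Partners of the HOX proteins, of which Pbx2, Meis2 and Meis3 were picked after their values were seen, divided by gene. Meis2, a paralog of Meis1, rose by 0.32 ± 0.09 (limma adjusted p = 0.031), while Meis3 had -0.24 ± 0.08 and was not called (adjusted p = 0.054). Pbx2 rose by 0.48 ± 0.08 (adjusted p = 0.0020) and Pbx3 fell by 0.63 ± 0.08 (adjusted p = 0.00025), and in both genes the groups did not overlap.

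Of the 9 stem cell transcription factors and chromatin regulators, Etv6 and Satb1 rose and 7 were not called. The called share was 22.2%, close to the 19.1% over all genes. Etv6, an ETS-family repressor needed for stem cells after birth and for platelet formation, read 8.52, 8.53 and 8.33 in wildtype and 9.13, 9.14 and 9.16 in the knockout. The 3 knockout arrays were within 0.03 of each other and at least 0.6 above every wildtype array. The change was 0.69 ± 0.08, or 1.61-fold (limma adjusted p = 0.00019), and stayed called with any array left out. Satb1, a chromatin organiser linked to lymphoid potential, read 6.85, 6.75 and 6.89 in wildtype and 7.06, 7.26 and 7.08 in the knockout. It rose by 0.30 ± 0.09 (limma adjusted p = 0.032), a call lost when wildtype replicate 1, wildtype replicate 2, knockout replicate 2 or knockout replicate 3 was left out, with changes of 0.24 to 0.34 and adjusted p up to 0.14.

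The 3 uncalled genes with the largest changes were in this group. Bmi1, the polycomb protein that keeps Cdkn2a silent in stem cells, read 8.79, 8.72 and 8.40 in wildtype and 8.94, 9.01 and 8.83 in the knockout, a change of 0.29 ± 0.11 (limma adjusted p = 0.085). The groups did not overlap, and the gene was called when wildtype replicate 1 was left out, at a change of 0.37 (adjusted p = 0.049), with a range of 0.17 to 0.37 over the arrays left out. Bmi1 was also called, with every array kept, when dim genes were filtered at the median. Hhex, a homeobox factor of blood, endothelium and hepatoblasts, read 7.93, 7.35 and 7.30 in wildtype and 7.57, 7.86 and 7.79 in the knockout. Wildtype replicate 1 was above every knockout array; the change was 0.22 ± 0.15 (adjusted p = 0.35) with it and 0.42 without it (adjusted p = 0.022). Erg, an ETS factor of stem cells and endothelium, read 7.69, 7.42 and 7.80 in wildtype and 7.74, 7.86 and 7.96 in the knockout, a change of 0.21 ± 0.11 (adjusted p = 0.19).

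Several factors most closely tied to long-term stem cells did not pass the test. Hlf, a PAR bZIP factor, had a change of -0.01 ± 0.09, Prdm16 of -0.09 ± 0.10 and Mecom, which encodes Evi1, of -0.12 ± 0.11, with adjusted p from 0.47 to 0.96. Hlf averaged 7.42 ± 0.08 in wildtype (SD, n = 3), Prdm16 6.90 ± 0.07 and Mecom 5.98 ± 0.09, the last below the median probe set on all arrays. The second probe set of Mecom, dimmer than the first, had 0.06 ± 0.07 (adjusted p = 0.66 over all probe sets). Mllt3, a partner of the Dot1l methyltransferase that maintains stem cells, read 10.41, 10.45 and 10.50 in wildtype and 10.57, 10.66 and 10.59 in the knockout, a change of 0.16 ± 0.07. Its groups did not overlap but it was not called (adjusted p = 0.17). The 95% intervals of Hlf and Prdm16 reached from -0.21 to 0.19 and from -0.32 to 0.14.

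Paralogs and partners of these genes, looked up after the values were seen, gave a mixed picture. Of 8 ETS factors of blood 4 rose, all without overlap: Fli1 by 0.73 ± 0.10, Etv6, Spi1 and Ets2, the last by 0.36 ± 0.09; Elf1, Ets1, Gabpa and Erg were not called. Of 14 measured subunits of polycomb complex 1, which contains Bmi1, 4 rose and 1 fell. Phc1, a polyhomeotic subunit, rose by 0.86 ± 0.10 (limma adjusted p = 0.00015), and Rnf2, the catalytic ring-finger partner of Bmi1, by 0.44 ± 0.09 (adjusted p = 0.0076), while Pcgf5 fell by 0.49 ± 0.10 (adjusted p = 0.0070).

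**Figure D3:**
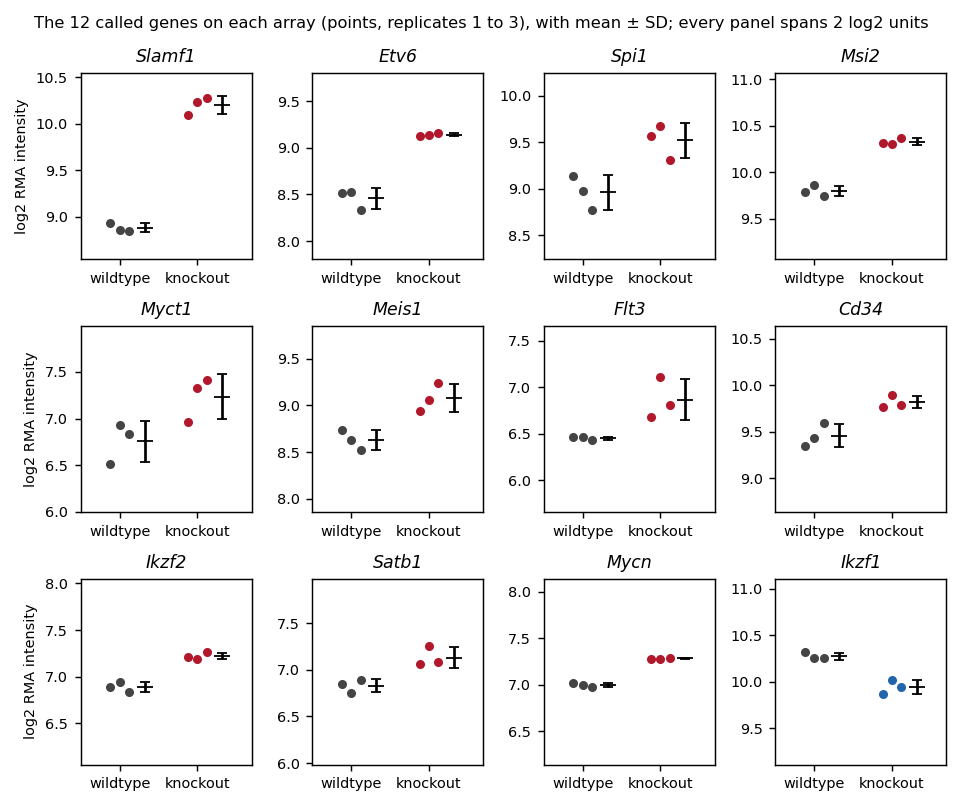
Log2 RMA intensity of the 12 called genes on each array (points; wildtype left, knockout right), with the mean and SD of the 3 arrays beside them; each panel spans 2 log2 units. The groups do not overlap in any panel. The genes are shown because they were called, which favours groups that do not overlap, and over all genes 37.5% do not overlap. The gap is widest in Slamf1 and narrowest in Myct1, where knockout replicate 1 at 6.96 lies just above wildtype replicate 2 at 6.93.

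Of the 3 fetal growth and self-renewal regulators, Msi2 and Mycn rose. Msi2, the Musashi RNA-binding protein of blood stem cells, read 9.79, 9.86 and 9.75 in wildtype and 10.32, 10.30 and 10.37 in the knockout. The groups were 0.4 apart at their nearest, and the change of 0.53 ± 0.08, or 1.45-fold (limma adjusted p = 0.00061), stayed called with any array left out. Msi1, its paralog, had 0.02 ± 0.09. Mycn, a MYC-family factor of stem cells, read 7.02, 7.0 and 6.97 in wildtype and 7.28, 7.28 and 7.29 in the knockout. Its change of 0.29 ± 0.07 (adjusted p = 0.017) was small beside a tight spread, and the call was lost when replicate 2 of either group or replicate 3 of the knockout was left out, at 0.28 to 0.30 with adjusted p up to 0.071. Myc had 0.08 ± 0.09 and was not called.

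Hmga2, the high-mobility-group protein that drives growth of fetal stem cells, averaged 9.11 ± 0.17 in wildtype and 9.23 ± 0.06 in the knockout (SD, n = 3), had a change of 0.12 ± 0.10 and was not called (limma adjusted p = 0.39); it turned to -0.12 with housekeeping level centring. In fetal stem cells Hmga2 is kept high by Lin28b, which blocks the let-7 microRNAs. Lin28b fell, from 9.11, 8.92 and 8.99 in wildtype to 8.41, 8.51 and 8.42 in the knockout, a change of -0.56 ± 0.08 (adjusted p = 0.00070) with no overlap. Arid3a, a factor of B-lymphoid and fetal progenitors, rose by 0.62 ± 0.09 (adjusted p = 0.00054). The other 6 measured genes of this fetal list were not called, among them, picked after their values were seen, Igf2bp1 at 0.22 ± 0.09 and Igf2bp3 at 0.08 ± 0.09.

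The lineage-priming factors went in both directions. Spi1, which encodes PU.1, the factor of myeloid and lymphoid fate, read 9.14, 8.98 and 8.77 in wildtype and 9.57, 9.68 and 9.31 in the knockout. The groups did not overlap and both spread over about the same range. Spi1 rose by 0.55 ± 0.12, or 1.47-fold (limma adjusted p = 0.0082), called with any array left out at 0.46 to 0.66. Cebpa, the granulocyte factor that hepatocytes also use, had 0.07 ± 0.09 (adjusted p = 0.61), and knockout replicate 3 at 7.29 stood above the other 5 arrays, which lay between 7.04 and 7.08.

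The Ikaros paralogs Ikzf1 and Ikzf2 moved in opposite directions. Ikzf1, a zinc-finger factor of lymphoid priming that is also expressed in red cell precursors, read 10.32, 10.25 and 10.25 in wildtype and 9.87, 10.02 and 9.94 in the knockout. It was lower on every knockout array and fell by 0.33 ± 0.08, to 0.794 of wildtype (limma adjusted p = 0.012). Ikzf2, which encodes Helios, read 6.89, 6.94 and 6.83 in wildtype and 7.21, 7.19 and 7.26 in the knockout, and rose by 0.33 ± 0.07 (adjusted p = 0.011). Both calls were lost without knockout replicate 3, with changes of -0.30 to -0.37 and 0.31 to 0.36 over the arrays left out and adjusted p of 0.051 and 0.054 at most. In the rest of the family, looked up after the values were seen, Ikzf4 rose by 0.28 ± 0.08 and Ikzf5 fell by 0.48 ± 0.08, while Ikzf3 was not called.

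Of the 2 stem cell genes shared with endothelium, Myct1 rose and Fgd5 did not pass the test. Myct1, a membrane protein of stem cells and endothelium, read 6.51, 6.93 and 6.83 in wildtype and 6.96, 7.33 and 7.41 in the knockout. It had the widest spread of the called genes. The change of 0.48 ± 0.14 (limma adjusted p = 0.032) lost its call when wildtype replicate 1, wildtype replicate 3, knockout replicate 2 or knockout replicate 3 was left out, with values of 0.36 to 0.61 and adjusted p up to 0.12. Fgd5, a guanine nucleotide exchange factor used as a stem cell reporter, averaged 6.93 ± 0.09 and 6.80 ± 0.19 (SD, n = 3), a change of -0.13 ± 0.10 (adjusted p = 0.40).

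Further genes of the stem and progenitor programme, outside the 33, were called in both directions. Of 19 other transcription factors measured, 5 rose and 5 fell. Besides Fli1, Gata2, the GATA factor of early progenitors, rose by 0.65 ± 0.11 (limma adjusted p = 0.0020) and Runx1, named after its values were seen and which sets up blood stem cells in the embryo, by 0.60 ± 0.08 (adjusted p = 0.00036). Lmo2, a bridging protein of stem cells that red cell precursors keep, fell by 1.01 ± 0.07 (adjusted p = 5.0e-06), and Pbx3 fell as given above. With housekeeping level centring 4 of the 19 rose and 10 fell, where 3.5% of all genes rose and 45.1% fell.

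Among 22 other surface and signalling genes 8 rose and 2 fell. Itga2b, the integrin CD41 of megakaryocytes and early progenitors, rose by 1.05 ± 0.12 (limma adjusted p = 0.00011), Ctnnal1, a stem cell marker related to alpha-catenin, by 0.89 ± 0.08 (adjusted p = 1.8e-05), Mmrn1, a megakaryocyte matrix protein, by 0.77 ± 0.10 and Cd47, the anti-phagocytic signal carried by most blood cells, fell by 0.53 ± 0.08 (adjusted p = 0.0012). Tek, the Tie2 receptor, at 0.00 ± 0.12, and Cd27, at 0.01 ± 0.10, both named after their values were seen, were not called. With housekeeping level centring 3 of the 22 rose and 3 fell, where 3.5% of all genes rose and 45.1% fell.

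Markers of other liver cells moved in the same comparison, and their part in these results was not tested. With genes of the set left out, 9 of 10 megakaryocyte and platelet markers rose, most of all Itga2b (above) and Clec1b at 0.84 ± 0.12, and their summed intensity was 17427 to 18469 on wildtype arrays and 22491 to 29678 on knockout arrays; this stands beside the rises of Slamf1, Meis1, Etv6 and Fli1, which that lineage also expresses. Of 8 granulocyte and monocyte progenitor markers 4 rose, led by Ms4a3 at 0.60 ± 0.11 and Mpo at 0.58 ± 0.10, with sums of 2437 to 2930 and 3627 to 3930, beside the rise of Spi1. Macrophage markers, of cells that also express Spi1, had 9 of 11 lower, led by Lgmn at -0.94 ± 0.10 and Cd5l at -0.90 ± 0.13, with sums of 6062 to 7274 and 4123 to 4620. Erythroid markers had 8 of 10 lower, led by Tspo2 at -3.86 ± 0.13 and Ermap at -1.59 ± 0.07, with sums of 56727 to 62993 and 29886 to 32200, beside the fall of Ikzf1. Gata1 at -0.02 ± 0.08 and Rhag at -0.15 ± 0.08, named after their values were seen, were not called.

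The other marker lists overlapped between the groups in summed intensity. Of 11 endothelial markers 2 rose, Egfl7 by 0.42 ± 0.11 and Pecam1 by 0.40 ± 0.12, with sums of 4367 to 6021 and 4823 to 5622. Of the 11 changes 8 were positive and 3 negative. An unadjusted limma p under 0.05 stood in 6 of the 11, against 6636 of all 19937 genes. Kdr at 0.34 ± 0.12, Emcn at 0.38 ± 0.16 and the defining endothelial gene Cdh5 at 0.03 ± 0.12 were not called. All were named after their values were seen. Lyve1, of liver sinusoidal and lymphatic endothelium, had the largest change of that list at -0.48 ± 0.16 and Cldn5, a tight junction gene, had -0.26 ± 0.09; neither was called (limma adjusted p = 0.067 and 0.059), though in both every knockout array was below every wildtype array, and both were named after their values were seen. Of 9 mast cell and basophil markers 1 rose, Slc18a2 at 0.53 ± 0.13, with sums of 651 to 735 and 647 to 799. Lymphoid markers had 1 higher, Il7r at 0.71 ± 0.09, and 1 lower of 9, Cd3d at -0.30 ± 0.09. Hepatoblast markers had 2 lower of 9, Apoa1 at -0.35 ± 0.10 and Fgb at -0.32 ± 0.10, and mesenchymal markers 1 lower of 9, Lum at -0.74 ± 0.18. All 9 mesenchymal changes were negative, with a median of -0.2 and sums of 3242 to 5176 in wildtype and 2907 to 3501 in the knockout. Negative changes numbered 8 of 9 in the mast cell and basophil list and 6 of 9 in both the lymphoid and hepatoblast lists. Over all genes they numbered 10916 of 19937. RMA values have no 0, so none of these markers was at 0; 4 mast cell and basophil and 4 lymphoid markers lay below the lower quartile on all 6 arrays.

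**Figure D4:**
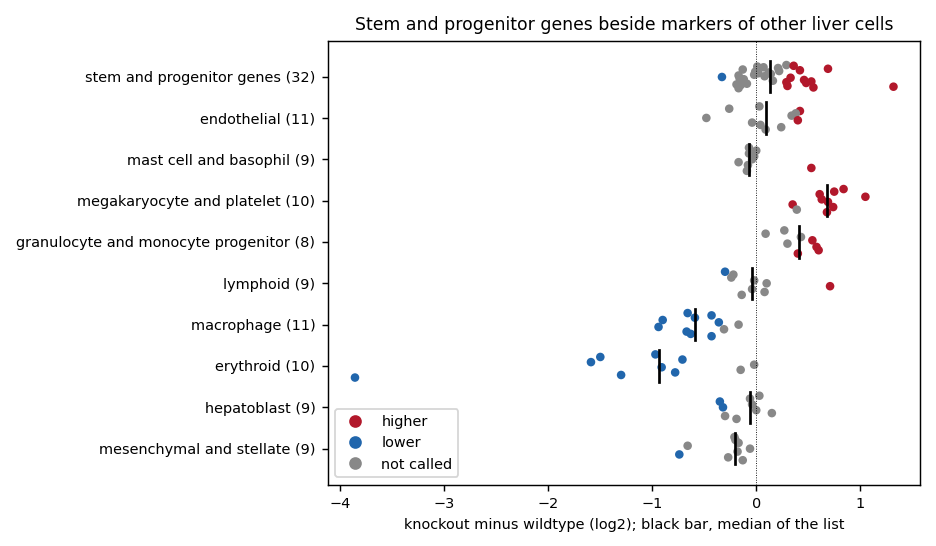
Change, knockout minus wildtype on the log2 scale, of the 32 stem and progenitor genes and of markers of other liver cells with genes of the set left out (number of genes in brackets); each point is a gene and the black bar is the list's median. The set's median of 0.13 lies between the medians of the megakaryocyte list at 0.69 and the erythroid list at -0.94.

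The counts of the set changed when single arrays were left out. Each such fit also has fewer arrays and so less power, and a lost call need not reflect the array left out. Leaving out wildtype replicate 2 left 7 rises (8.2% of all genes called higher) and leaving out knockout replicate 2 left 6 (6.88%). Leaving out knockout replicate 3 left 7 rises and 0 falls (6.96%). Fits without wildtype replicate 1, wildtype replicate 3 or knockout replicate 1 gave 11, 9 and 11 rises. For those last fits the share of all genes called higher was not taken, so their counts have no background beside them. Each of them called fewer genes in all than the fit with every array kept. The 5 genes called higher in all 6 fits with an array left out were Slamf1, Etv6, Msi2, Meis1 and Spi1. With no moderation of the variances 5 genes rose, against 5.66% of all genes: Slamf1, Etv6, Msi2, Mycn and Ikzf2. Meis1 and Spi1 were not called in that fit (adjusted p = 0.089 and 0.12), nor were Cd34, Flt3, Satb1 and Myct1.

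Scaling of the arrays set how many of the smaller changes were read as rises. With 75th percentile centring 9 genes rose and 1 fell (8.0% of all genes called higher), and with centring on the deviations of 14 housekeeping genes from their own means 8 rose and 1 fell (8.18%). With centring on the median level of the same 14 genes, 3 rose and 9 fell, where 3.5% of all genes were called higher and 45.1% lower. As deposited, the 14 housekeeping genes had a median change of 0.01 and 13 of them were not called. Pgk1, a glycolytic enzyme gene, was called higher at 0.88 ± 0.10. The median level lay between Polr2a (mean 11.59) and Pgk1 (11.73) in wildtype, and between Cyc1 (11.69) and B2m (12.13) in the knockout. Centring on that level therefore set different genes against each other, and its shift is not a general rise of the housekeeping genes. That centring moved the median change of all genes from -0.02 to -0.27, and the set's median from 0.13 to -0.12. The 3 that still rose were Slamf1 at 1.07, Etv6 at 0.44 and Msi2 at 0.28; Ikzf1 fell, and Procr, Prom1, Kit, Hoxa9, Hlf, Mecom, Prdm16 and Fgd5 were called lower there and not otherwise. All 12 called genes kept their sign under the 4 other scalings.

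**Figure D5:**
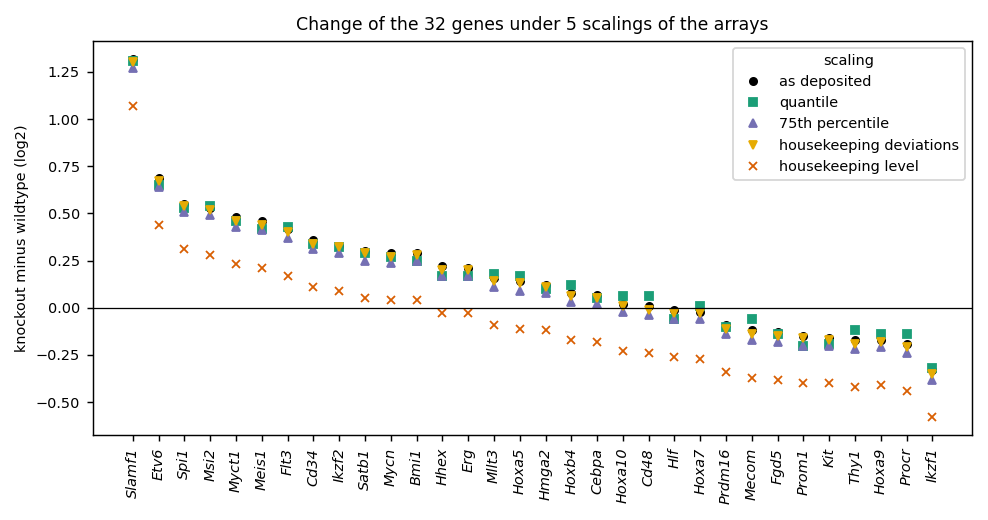
Change of each of the 32 genes, knockout minus wildtype on the log2 scale, as deposited and under 4 other scalings of the arrays, ordered by the value as deposited. Centring on the housekeeping level lies lower for every gene, and Slamf1, from 1.32 as deposited to 1.07, stays the highest under each scaling.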

How the data were processed

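RNA of 6 whole livers was measured on 1-colour Affymetrix gene arrays. The deposited values are linear intensities, 1 per probe set, that the authors obtained by RMA; the submitters' processing notes name Affymetrix Power Tools 1.8.6. Build and annotation: not given in the sources used here. Because RMA equalises the arrays, total RNA per liver is not measured. Log2 was taken with no filter. Of 34760 probe sets 21640 had 1 gene in the platform annotation; a gene was its brightest such probe set by mean log2, which left 19937 genes. Groups were compared in limma 3.58.1 (R 4.3.3; lmFit, then eBayes), 2-sided, group as the sole term, Benjamini-Hochberg adjusted over all genes. An exact permutation of 3 against 3 cannot go below p = 0.10. The fit was tested on simulated data, where it called 12% of genes changed 1.25-fold, 62% at 1.5-fold and 92% at 2-fold. That simulation called 139 genes in all, against 3809 in the data, so its shares do not carry over directly. The set, the lists and the tests were chosen with earlier results of these data known, and the paralog families after the values were seen. The text gives every gene of the set, per array where called and for the 3 largest uncalled changes; of other lists up to 4 called genes by size of change, or the 2 with the smallest p, and of marker lists the 2 largest called changes; exceptions are named as such. Promoters are from RefSeq, GRCm38.p6, a table that holds 29 of the 33. Alternatives were 4 scalings, 2 filters on dim genes, the mean of probe sets, a trended and an unmoderated variance, weights per array, the replicate number as a block and leaving out each array.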

Additional observations from a re-analysis of the deposited data

How the results depend on the processing

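Higher calls in the set numbered 9 to 11 of those measured under quantile normalization, 75th percentile centring, both dim filters, the mean of probe sets, trend and robust variance and array weights, and 8 with housekeeping deviation centring; they fell to 3 with housekeeping level centring and to 5 with no moderation. Lower calls were 1 except 9 with housekeeping level centring, which also called 9691 genes in all and turned the set's median to -0.12; no moderation called 2083 genes. The set's median moved to 0.09 with 75th percentile centring and to 0.25 with the filter at the median, which kept 18 of the 32 genes and turned the median of all genes to 0.06. With 1 array left out, higher calls ran from 6 to 11, lower calls from 0 to 1, the set's median from 0.08 to 0.15 and genes called in all from 2409 to 3749. Sign turned in uncalled genes: with housekeeping level centring Cd48 (-0.24), Hoxa5 (-0.11), Hoxa10 (-0.23), Hoxb4 (-0.17), Erg (-0.03), Hhex (-0.03), Mllt3 (-0.09), Hmga2 (-0.12) and Cebpa (-0.18); Cd48 with 75th percentile (-0.04) and housekeeping deviation centring (-0.01); Hoxa10 with 75th percentile centring (-0.02); Hoxa7 with quantile normalization (0.01); Hlf with array weights (0.04). With 1 array left out, sign also turned in Cd48 (-0.02 to 0.04), Hoxa5 (-0.03 to 0.29), Hoxa7 (-0.05 to 0.01), Hoxa10 (-0.02 to 0.07), Hlf (-0.07 to 0.06), Prdm16 (-0.19 to 0.01) and Cebpa (-0.01 to 0.11). Housekeeping level centring shifted every gene alike, as described above, and the cause of the other turns was not tested. The replicate numbers gave no clear pairing of the arrays. Deviations of same-numbered arrays correlated at -0.156, -0.224 and 0.183 over genes, and those of unlike-numbered arrays at -0.165 to 0.329. Deviations from means of 3 arrays depend on each other, so these correlations cannot show whether the arrays were paired. With the replicate block 10 genes of the set were called higher and 1 lower, Satb1 was lost, and 3498 genes were called in all. Of the 32 genes 9 read below the median probe set on every array; standard errors over the set ran from 0.07 to 0.15, and the limit set by signal over background was not tested.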
